A study of Mus musculus with 2 samples.

Results

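Endothelial cells that carried no UMI of the venular genes Ackr1 and Sele were described in ulcerated mouse skin. They were selected on the measured UMIs of 12 genes, in 2 single-cell libraries, among barcodes with at least 200 detected genes and at most 15% mitochondrial UMIs (unique molecular identifiers, which count captured transcripts). A barcode passed the endothelial gate with UMIs of at least 3 of the 5 markers Pecam1, Cdh5, Kdr, Flt1 and Plvap, and with at most 1 UMI each of Ptprc, of Pdgfra, and of Mmrn1, Prox1 and Ccl21a summed. The gate thereby left out barcodes with more than 1 UMI of the leukocyte, fibroblast or lymphatic genes. Of 31252 kept barcodes 446 passed it, and 219 of these had 0 UMIs of Ackr1 and Sele. They are called Ackr1/Sele-negative cells here, and the other 227 Ackr1/Sele-positive cells. The values of these 12 genes, by which the cells were chosen, are given only as a description, as is every comparison of Ackr1/Sele-negative with Ackr1/Sele-positive cells.

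The study profiled ulcerated lesional skin of mice with ulcerative dermatitis induced by scratching. The labels give the genotype of 1 library as wild type and of the other as overexpressing Has2, the gene of a hyaluronan synthase, throughout the body. The label of each states 15 consecutive days of tape stripping at 40 to 50 strips per day, which stands for scratching. That label opens with the word followed, so it may lack an earlier step. The promoter that drives the transgene, the strain, the age and the number of animals behind a library are not given in the sources used here. The molecule label reads total RNA for the wild-type and polyA RNA for the Has2-labelled library, although both carry the same protocol text. Each genotype had 1 library, so genotype, animal, preparation and this labelled difference cannot be told apart, no difference has a replicate check, and no test was made. Every interval is at 95% and covers counting error only.

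Skin vessels run from arterioles through capillaries to venules, and their endothelial cells differ in the genes they use along that path. Arterial cells use Notch ligands and the gap junction genes Gja4 and Gja5, capillary cells take up fatty acids through Cd36, Gpihbp1 and Fabp4, and venular cells carry the selectins and the chemokine receptor Ackr1 with which leukocytes are bound and let through. During sprouting, tip cells lead the new vessel and are known for Apln, Esm1, Angpt2 and Pgf, while the cells around them lay down a basement membrane of collagen IV, laminins and nidogens.

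The kept barcodes numbered 16837 in the wild-type library and 14415 in the library labelled as overexpressing Has2, which is called the Has2-labelled library. Their median depths were 4348 and 4485 UMIs. The libraries shared 79 barcode sequences, of which 0 belonged to Ackr1/Sele-negative cells. Has2 (ENSMUSG00000022367) in barcodes outside the gate was at 73.6 and 88.0 CPM (counts per 1000000 summed UMIs). In Ackr1/Sele-negative cells only 16 and 10 Has2 UMIs were found, or 11.5 and 8.34 CPM, and 1 cell held 75% and 80% of them, so these cells do not check the label. Their own level gave a ratio of 0.723 (0.293 to 1.69) and a difference was not detectable at this depth.

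There were 125 Ackr1/Sele-negative cells in the wild-type library and 94 in the Has2-labelled library, with 1385796 and 1198612 UMIs in all. Their median depths were 9108 and 9523.5 UMIs. The Ackr1/Sele-positive cells were deeper, with medians of 26737 and 17382.5 UMIs, so a cell with few UMIs was more likely to be counted as negative. At the Ackr1 plus Sele level of the positive cells, 1644 and 2417 CPM, fewer than 3 UMIs would be due in 15 wild-type and 6 Has2-labelled negative cells. That level comes from cells chosen for carrying these UMIs, so it may be too high for other cells. The 19 and 16 positive cells with just 1 such UMI had median depths of 16804 and 21211 UMIs. How many negative cells missed these genes for lack of depth was therefore not settled. The plot of depth shows how far the cells overlap.

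**Figure D1:**
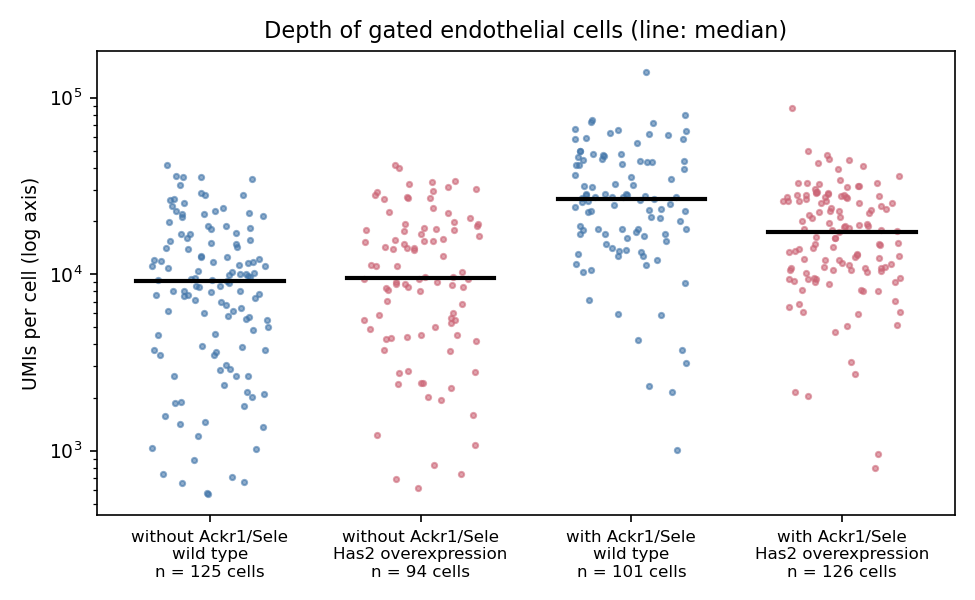
UMIs per cell (log axis) of gated endothelial cells without and with UMIs of Ackr1 or Sele in each library; each point is a cell and each line the median. The cells without these UMIs had medians of 9108 and 9523.5 UMIs and the cells with them 26737 and 17382.5.

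The endothelial label held against genes that the rule did not use. All 23 genes of a list of further pan-endothelial genes, among them Tie1, Egfl7, Emcn and Erg, were detected, and their summed level was 7348 CPM in wild-type and 9020 CPM in Has2-labelled negative cells. In barcodes outside the gate the same list summed to 270 and 360 CPM. With every cell thinned to 2000 UMIs, 96.3% of 108 and 97.7% of 86 negative cells held at least 3 of these genes, against 0.325% and 0.338% of barcodes with Ptprc UMIs. The thinning left out 17 and 8 shallower negative cells. Barcodes with Ptprc UMIs means, here and below, those with at least 2 Ptprc UMIs and none of the 5 gate markers. Their choice thus favoured low shares of endothelial genes.

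At the edge of the gate, 24 wild-type and 13 Has2-labelled negative cells had just 3 of the 5 markers, with 2445 and 4223 CPM of the pan-endothelial list. Barcodes with 2 of the 5 markers, just outside, had 562 and 482 CPM. The 19 and 16 gated cells with 1 UMI of Ackr1 or Sele, just outside the second limit, had 7086 and 8648 CPM.

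Genes of other cell types were present in some of the cells. At least 3 genes of a pericyte and smooth muscle, fibroblast, macrophage, neutrophil or erythroid list were found in 27 of 125 wild-type cells (21.6%, 14.7 to 29.8%) and 23 of 94 Has2-labelled cells (24.5%, 16.2 to 34.4%). The pericyte and smooth muscle list summed to 595 and 1207 CPM, the fibroblast list to 393 and 1407 CPM, the macrophage list to 385 and 194 CPM and the neutrophil list to 455 and 545 CPM. Without the 27 and 23 cells these sums were 165 and 118, 32.2 and 25.6, 39.4 and 41.2, and 80.9 and 33.4 CPM. Such a fall follows from the choice of the cells left out. A single Has2-labelled cell held 99.7% of the Hbb-bs UMIs, and the erythroid list was at 32.5 and 3785 CPM with it and at 7.26 and 7.80 CPM without the 27 and 23 cells. The T cell genes Cd3d, Cd3e, Cd3g, Trac, Trbc1 and Trbc2 were at 0 in both libraries. With Lck and Il7r, the T cell list of 8 genes summed to 15.2 and 13.3 CPM. The gate's limit on Ptprc favoured low T cell genes. The lymphatic genes Ccl21a and Mmrn1 were at 0 in both libraries too, but the gate itself limited their UMIs, so they are no check. Ratios of named genes between the libraries are given below also without these 27 and 23 cells where that moved them by more than 1.5 times. The part of these other cells in the results was otherwise not tested.

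Ackr1/Sele-negative cells made up 0.742% (0.618 to 0.884%) of the kept wild-type barcodes and 0.652% (0.527 to 0.797%) of the kept Has2-labelled barcodes, a ratio of 0.878 (0.665 to 1.16). Of the gated endothelial cells they were 55.3% (48.6 to 61.9%) and 42.7% (36.1 to 49.6%), a ratio of 0.773 (0.585 to 1.02). The share within the gate was therefore lower in the Has2-labelled library. The interval of its ratio treats the cells as Poisson counts and is too wide for shares of this size. That it included 1 does not decide whether counting error covers the difference. The share moved with depth: thinned to 2000 UMIs per cell the shares were 66.8% and 56.2%, and among cells of at least 10000 UMIs they were 36.8% and 31.5%.

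Most Ackr1/Sele-negative cells carried capillary genes, many of them together with arterial and tip genes. With cells thinned to 2000 UMIs, at least 3 of 15 capillary genes were found in 86.1% (78.1 to 92.0%) of wild-type and 81.4% (71.6 to 89.0%) of Has2-labelled cells. At least 3 of 16 arterial genes were found in 63.0% (53.1 to 72.1%) and 64.0% (52.9 to 74.0%). In positive cells the arterial shares were 35% and 34.7%, and in barcodes with Ptprc UMIs they were 0.0424% and 0.0902%. The capillary shares were 68% (57.9 to 77.0%) and 80.6% (72.6 to 87.2%) in positive cells and 2.71% and 2.64% in barcodes with Ptprc UMIs. In the Has2-labelled library positive cells thus held capillary genes about as often as negative cells. The 3 lists overlapped within cells. Arterial, capillary and tip genes stood together in 33.3% of wild-type and 34.9% of Has2-labelled negative cells, capillary genes alone in 11.1% and 10.5%, and none of the 3 lists in 5.56% and 2.33%. The arterial and tip lists share Dll4 and Unc5b.

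The absence of Ackr1 and Sele did not remove all other venous genes. At least 3 of 16 further venous genes, among them Selp, Vwf, Nr2f2, Vcam1 and Icam1, were found in 41.7% (32.3 to 51.5%) of wild-type and 53.5% (42.4 to 64.3%) of Has2-labelled negative cells after thinning. Barcodes with Ptprc UMIs, which share some of these genes, held 21.3% and 24.3%, and positive cells 78.0% and 91.1%. Taken singly, Selp was in 3.70% and 12.8% of negative cells after thinning and Vwf in 4.63% and 22.1%, so the share of the list rested largely on other members. At least 3 tip and sprouting genes were held by 60.2% (50.3 to 69.5%) and 67.4% (56.5 to 77.2%) of negative cells, by 77% (67.5 to 84.8%) and 54.8% (45.7 to 63.8%) of positive cells, and by 2.33% and 4.12% of barcodes with Ptprc UMIs. Positive cells thus held them more often than negative cells in the wild-type library and less often in the Has2-labelled library, a difference that was not tested.

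**Figure D2:**
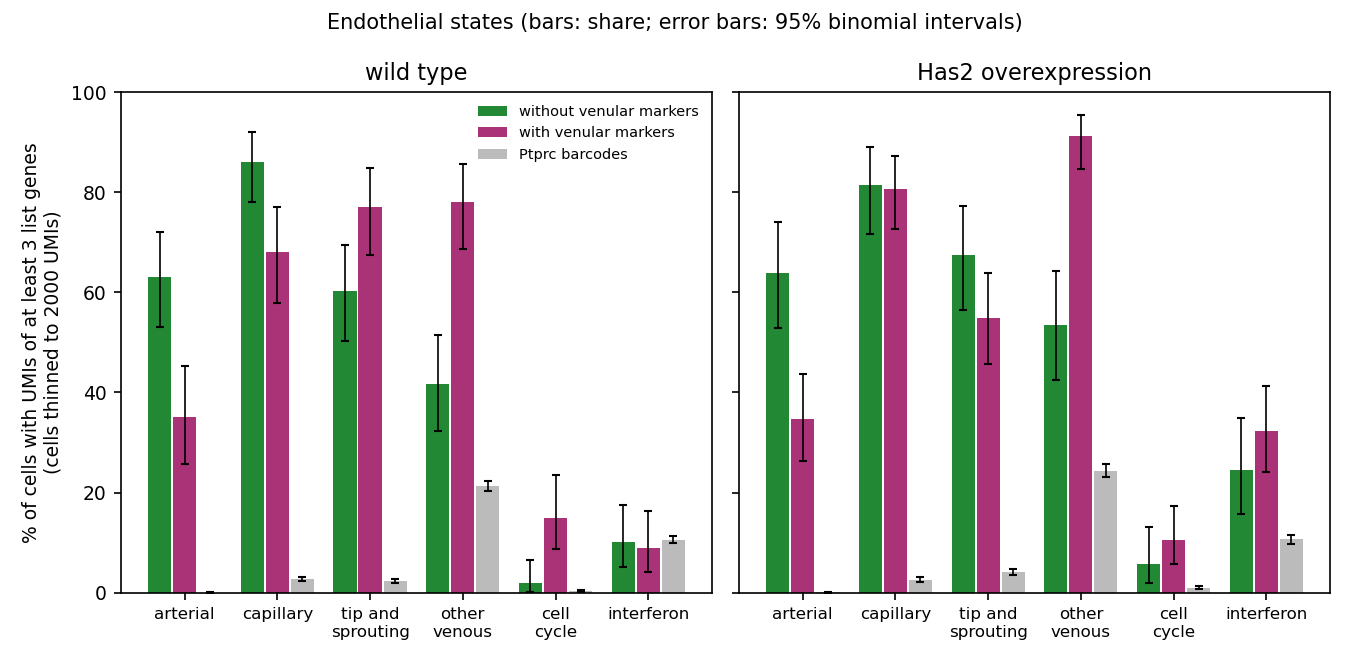
Percent of cells, thinned to 2000 UMIs, with UMIs of at least 3 genes of each list, in endothelial cells without and with Ackr1 or Sele UMIs and in barcodes with Ptprc UMIs; the left panel is the wild-type and the right panel the Has2-labelled library, and error bars are 95% binomial intervals. Arterial lists reached 63.0% and 64.0% of the cells without these UMIs and 35% and 34.7% of the cells with them.

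The next comparison, a description because the rule defined its groups, set negative against positive cells within each library. It used 9421 genes with at least 20 UMIs in each library over the negative and positive cells summed. At least 2-fold higher in negative cells in both libraries were 120 genes (1.27%), and at most 0.5 times as high in both were 150 genes (1.59%). Within single libraries the shares of genes past these limits were 4.37% higher and 7.38% lower in wild type, and 4.15% higher and 3.8% lower in the Has2-labelled library. Of 14 measured arterial genes 8 were at least 2-fold higher in negative cells in both libraries and 0 were at most 0.5 times as high, and the list's median log2 ratio was 1.62 in wild type and 1.14 in the Has2-labelled library. The medians over all 9421 genes were -0.04 and 0.05. Summed, the arterial list was at 6763 CPM in negative and 4555 CPM in positive wild-type cells. In the Has2-labelled library the sums were 5031 and 5175 CPM, so the summed level was not higher in negative cells there.

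The arterial gap junction gene Gja4 was 7.54 times (5.26 to 11) and 4.06 times (3.08 to 5.4) as high in negative as in positive cells. Cxcl12, a chemokine of arterial endothelium, stood at 226 CPM in negative and 57.9 CPM in positive wild-type cells and at 361 and 82.3 CPM in the Has2-labelled library, 3.90 and 4.39 times as high. Cldn5, a tight junction claudin, was 6.36 and 3.58 times as high. The integrin Itga1, the taurine carrier Slc6a6, the intermediate filament gene Nes and the transcriptional regulator Id3 were also at least 2-fold higher in both, with ratios of 2.33 to 4.67. Rgs5, a pericyte gene, was 4.69 and 3.25 times as high, and was among the genes carried by the cells with pericyte genes.

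Capillary genes were higher in negative cells mainly in the wild-type library. Their median log2 ratio was 1.42 in wild type and 0.20 in the Has2-labelled library, and 3 of 13 measured genes were at least 2-fold higher in both. Gpihbp1, which carries lipoprotein lipase to the capillary lumen, was 5.19 times (4.47 to 6.05) as high in wild-type and 2.09 times (1.87 to 2.34) as high in Has2-labelled negative cells. Fabp4, a fatty acid binding protein, was 2.44 times as high in wild type and 0.893 times in the Has2-labelled library. The fatty acid receptor Cd36 had ratios of 2.86 and 1.13. In positive cells Cd36 was at 238 CPM in wild type and 603 CPM in the Has2-labelled library, while negative cells had 680 CPM in each. The difference between the libraries in these medians was not tested.

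Venous genes beyond Ackr1 and Sele were lower in negative cells, with 10 of 16 at most 0.5 times as high in both libraries and medians of -1.85 and -1.35. Selp, the P-selectin with which venules bind leukocytes, was at 65.7 CPM in negative and 3645 CPM in positive wild-type cells, 0.0180 times as high, and at 261 and 4137 CPM in the Has2-labelled library, 0.0631 times. Tll1, a protease, was 0.0488 and 0.0908 times as high and the protocadherin Pcdh7 0.0143 and 0.0943 times, the first from 8 UMIs in negative cells (0.00616 to 0.0283), of which 1 cell held 62.5%. Mctp1, Ehd3, the prostaglandin transporter Slco2a1 and Nupr1 had ratios of 0.123 to 0.383. Tip and sprouting genes had medians of 0.63 and 0.80, but thinning turned the wild-type median to -0.14.

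**Figure D3:**
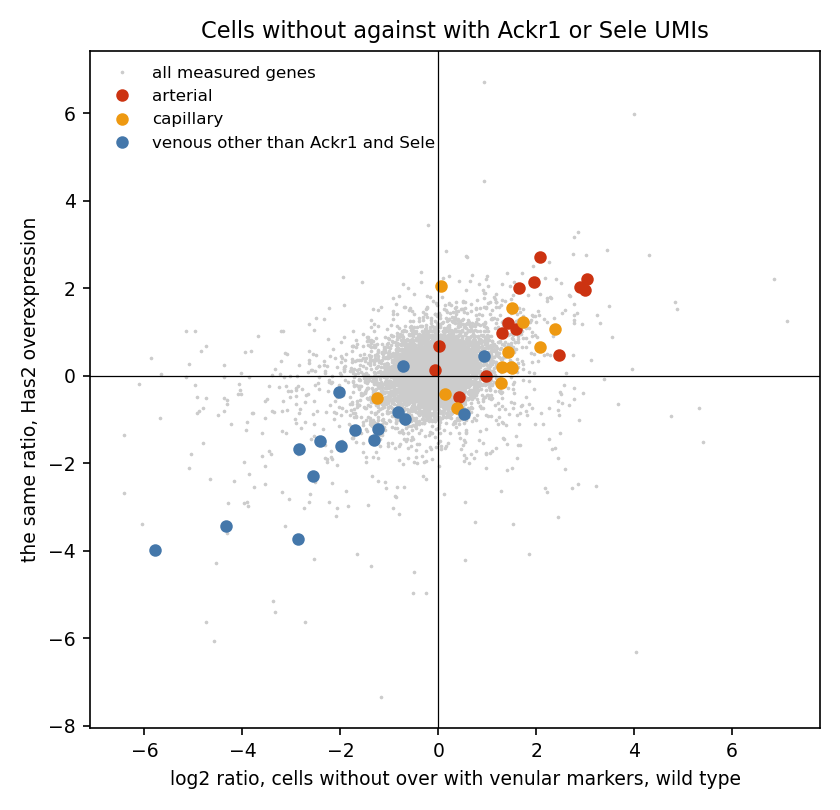
Log2 ratio of endothelial cells without over with Ackr1 or Sele UMIs in the wild-type library (x axis) and in the Has2-labelled library (y axis); grey points are all measured genes and coloured points arterial, capillary and other venous genes. Arterial genes lay mostly in the upper right, with medians of 1.62 and 1.14, and venous genes in the lower left, with medians of -1.85 and -1.35.

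Between the libraries, negative cells were compared by the ratio of the Has2-labelled over the wild-type level. Of 6408 genes with 50 or more UMIs in the libraries summed, 347 were at least 2-fold higher in the Has2-labelled library (5.42%) and 122 were at most 0.5 times as high (1.9%). The higher genes thus made up 74.0% of these 469. Other scalings moved this split: median-of-ratios scaling, which shifted the median of all genes by -0.14 on the log2 scale, gave 255 higher and 192 lower (57.0% higher), and TMM scaling, with a shift of -0.09, gave 285 and 160 (64.0% higher). Lists of genes were described over members with at least 20 UMIs, for which the median log2 ratio of all 8872 genes was 0.05. At that minimum 8.43% of genes were at least 2-fold higher, 3.11% at most 0.5 times as high, 54.2% above 0 and 45.8% below 0.

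Genes of sprouting vessels were higher in the Has2-labelled library. Of 17 measured tip and sprouting genes 13 were higher, 4 of them at least 2-fold and 0 at most 0.5 times as high, with a median log2 ratio of 0.67. Pgf (ENSMUSG00000004791), a ligand of the VEGF receptor Flt1, was at 146 CPM in wild-type and 491 CPM in Has2-labelled cells, 3.35 times as high (2.86 to 3.95). Apln (ENSMUSG00000037010), the secreted peptide apelin, was at 64.9 and 162 CPM, 2.49 times as high (1.93 to 3.24). Esm1 (ENSMUSG00000042379), a proteoglycan of tip cells, was at 24.5 and 70.1 CPM, 2.86 times as high (1.90 to 4.39).

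Angpt2, the Tie2 ligand that destabilises vessels, was at 167 and 324 CPM, 1.94 times as high (1.65 to 2.30), and the nidogen Nid2 was 2.18 times as high (1.83 to 2.61). Prnd (ENSMUSG00000027338), a prion-like gene outside the list that was among those with the largest ratios of all, was at 7.94 and 114 CPM, 14.4 times as high (7.80 to 29.5). The wild-type levels of Esm1 and Prnd rested on few UMIs, 34 and 11, of which 1 cell held 52.9% and 54.5%. Without the top cell of each gene their ratios were 4.84 and 26.8. With cells thinned to 2000 UMIs Prnd was 5.65 times as high.

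Pgf, Apln, Esm1 and Prnd, a set of 4 genes chosen after their values had been seen, were also higher in positive cells of the Has2-labelled library, with ratios of 2.75, 3.46, 7.67 and 5.19. The whole tip and sprouting list was not: it summed to 3182 and 4257 CPM in negative cells but to 3117 and 2903 CPM in positive cells. Within negative cells, too, members differed. Plaur, the urokinase receptor, was at 700 and 419 CPM in negative cells, 0.598 times as high (0.536 to 0.667), and the Notch ligand Dll4 was at 140 and 132 CPM, with an interval of the ratio (0.758 to 1.17) that included 1. Pdgfb, the ligand that draws in pericytes, was 1.33 times as high (1.15 to 1.55).

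More negative cells held Pgf, Apln, Esm1 and Prnd in the Has2-labelled library, which follows in part from the choice of these 4 genes. An Apln UMI was found in 9 of 125 wild-type cells (7.20%, 3.35 to 13.2%) and 26 of 94 Has2-labelled cells (27.7%, 18.9 to 37.8%), and after thinning in 3.70% and 15.1%. Among barcodes with Ptprc UMIs, of median depth 4283.5 and 4205 UMIs, the thinned shares of Apln were 0.0989% and 0.113%. Prnd UMIs were in 4% (1.31 to 9.09%) and 29.8% (20.8 to 40.1%) of negative cells, and after thinning in 2.78% and 15.1%, against 0.0141% and 0.0225% of barcodes with Ptprc UMIs. Esm1 was in 4.80% and 19.1%, and Pgf in 27.2% and 47.9%, with thinned shares of 1.85% and 8.14%, and 14.8% and 30.2%. In positive cells the shares differed less, and that of Pgf was lower. Apln was in 14.9% and 17.5% of them, Prnd in 11.9% and 12.7%, Esm1 in 4.95% and 6.35% and Pgf in 45.5% and 35.7%. Their thinned shares in positive cells were 3% and 4.03%, 2% and 2.42%, 1% and 4.03%, and 11% and 14.5%.

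The genes were found in overlapping cells. In the Has2-labelled library 18 of the 26 cells with Apln also held Prnd and 14 held Esm1, and all 18 cells with Esm1 held Angpt2. In the wild-type library 1 of the 9 Apln cells held Prnd and 1 held Esm1, and 8 held Angpt2. Angpt2 was common: 73.3% and 57.1% of positive cells and 28.8% and 44.7% of all negative cells held it. At least 2 of Apln, Prnd, Esm1 and Pgf were found in 12 wild-type cells (9.60%) and 28 Has2-labelled cells (29.8%), and all 4 in 0 and 11 cells. These counts, too, follow in part from the choice of the 4 genes after their values were seen. Deeper cells hold more genes: the cells with at least 2 of the 4 had medians of 19607.5 and 18732 UMIs, against 7693 and 4995 UMIs for cells with none.

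Receptors of guidance and growth factors were higher more often than lower. Of 13 measured genes of a list of VEGF ligands and receptors and semaphorin and Slit receptors 9 were higher, with a median of 0.67, and the roles differed. Nrp1, a co-receptor of VEGF, was 1.62 times as high (1.34 to 1.96), the semaphorin receptors Plxnd1 and Plxna2 were 1.88 and 1.95 times as high, and Robo4, which steadies vessels, was 2.0 times as high (1.53 to 2.63). Flt4, the receptor of VEGF-C, was at 59.2 and 39.2 CPM, 0.663 times as high (0.453 to 0.960). Among the genes of the gate, given only as a description, Plvap, the diaphragm protein of fenestrae and caveolae, was at 484 and 1451 CPM, 3.0 times as high (2.74 to 3.28), while Flt1 was at 1424 and 1062 CPM, Kdr at 198 and 225 CPM and Pecam1 at 1277 and 1466 CPM.

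In the angiopoietin and Tie group the 2 receptors differed in direction. Angpt2 was higher, as given above, and the receptor Tie1 was 1.51 times as high (1.28 to 1.79). Ptprb, the phosphatase that acts on Tie2, was at 307 and 489 CPM, 1.59 times as high (1.40 to 1.81). Tek, which encodes Tie2, was at 216 and 146 CPM, 0.674 times as high (0.556 to 0.815). Of the 7 measured genes of this list 5 were higher.

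Every measured gene of the basement membrane list, 15 of 15, was higher in the Has2-labelled library, 5 of them at least 2-fold, with a median log2 ratio of 0.73. Col18a1, the source of endostatin, was at 610 and 1307 CPM, 2.14 times as high (1.97 to 2.33), and Col15a1 at 323 and 825 CPM, 2.56 times as high (2.29 to 2.87). Fn1, fibronectin, was at 165 and 495 CPM, 3.01 times as high (2.58 to 3.52). The perlecan gene Hspg2 was 1.89 times as high (1.70 to 2.11). The collagen IV chains Col4a1 and Col4a2 were 1.41 and 1.43 times as high, Sparc 1.20 times, and the laminin chains Lama4, Lamb1 and Lamc1 1.57, 1.66 and 1.70 times. For Nid1 the interval included 1 (1.15, 0.999 to 1.31).

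Fibroblasts also make these proteins, and the fibroblast list was higher in the Has2-labelled cells. Leaving out the 27 and 23 cells that carried genes of other types lowered the fibroblast list by design, to 32.2 and 25.6 CPM. Without these cells the basement membrane median was 0.74. The fibrillar collagens behaved otherwise: Col1a1 was at 54.8 and 565 CPM, of which 1 Has2-labelled cell held 71.3%, and its ratio was 10.3 with and 1.61 (0.512 to 5.50, from 6 and 9 UMIs) without those cells. Summed over the list, basement membrane genes took 13359 CPM in wild-type and 19155 CPM in Has2-labelled negative cells. In positive cells the sums were 11311 and 16796 CPM, and in barcodes outside the gate 3329 and 9316 CPM, so the direction was the same in both. Fn1 was at 585 and 1144 CPM outside the gate, above its level in negative cells, while Col18a1 was at 26.2 and 74.5 CPM there. The part of RNA from other cells in these ratios was not tested.

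**Figure D4:**
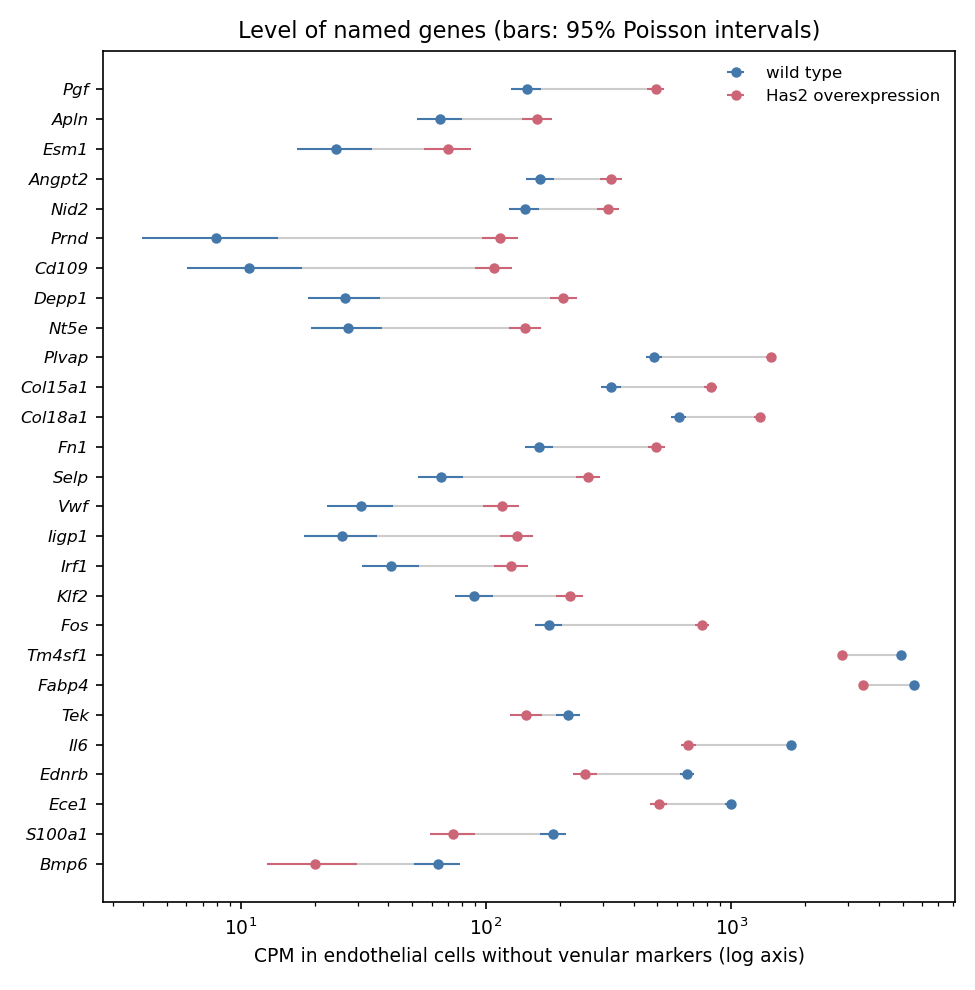
CPM (log axis) of named genes in endothelial cells without Ackr1 or Sele UMIs in each library; points are the level from summed UMIs, bars 95% Poisson intervals, and the line joins the libraries. Pgf was at 146 and 491 CPM and Plvap at 484 and 1451 CPM, while Il6 was at 1758 and 669 CPM.

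The arterial and capillary lists had low medians and genes that ran both ways. Of 15 measured arterial genes 8 were higher and 7 lower, with a median of 0.32, yet their summed level was 6763 CPM in wild-type and 5031 CPM in Has2-labelled cells, of which Tm4sf1 alone took 4922 and 2842 CPM (ratio 0.577, 0.554 to 0.602). Tm4sf1 encodes a membrane protein of endothelial cells. Cxcl12 was 1.60 times as high (1.38 to 1.86) and Sema3g, a secreted semaphorin, 1.45 times (1.16 to 1.82). The connexin gene Gja5 was at 82.3 and 55.9 CPM, with 52.6% and 70.1% of its UMIs in 1 cell, and its ratio of 0.680 became 0.428 without the top cells. Sox17, Efnb2 and Hey1 had ratios of 0.873, 0.876 and 0.918 with intervals that included 1.

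Of 13 measured capillary genes 9 were higher, with a median of 0.33 that thinning turned to -0.06. Their summed level was 9422 and 7782 CPM, of which Fabp4 took 5547 and 3434 CPM (ratio 0.619, 0.596 to 0.643). The water channel Aqp1 was 0.683 times as high (0.616 to 0.758), Cd36 0.999 times (0.909 to 1.10) and Gpihbp1 1.30 times (1.16 to 1.46). Rgcc, a cell cycle regulator found in capillaries, was at 153 and 440 CPM, 2.87 times as high (2.45 to 3.39). In positive cells all of Fabp4, Aqp1, Cd36 and Rgcc were higher in the Has2-labelled library, with ratios of 1.69, 1.48, 2.53 and 5.29. Lpl, lipoprotein lipase, was at 79.4 and 45.9 CPM, 0.578 times as high (0.410 to 0.806), and 0.258 times without the cells with genes of other types.

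Venous genes other than Ackr1 and Sele were higher in the Has2-labelled library in 14 of 16 cases, 4 of them at least 2-fold, with a median of 0.59. Vwf, the clotting factor stored in endothelial granules, was at 31.0 and 116 CPM, 3.74 times as high (2.64 to 5.39). Its thinned share of cells was 4.63% and 22.1%, against 0.678% and 0.947% in barcodes with Ptprc UMIs. Nr2f2, the transcription factor of vein identity, was at 23.8 and 48.4 CPM, 2.03 times as high (1.30 to 3.22).

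Selp was 3.98 times as high (3.14 to 5.08), although 1 cell held 46.2% of its wild-type and 51.8% of its Has2-labelled UMIs, and without cells carrying genes of other types it was 6.22 times as high. With gated cells of at most 1 UMI of Ackr1 plus Sele counted as negative, the ratio of Selp was 1.98, with cells of at least 10000 UMIs 2.26, and without the highest doublet scores 7.67. Il1r1, the interleukin-1 receptor, and the adhesion molecule Vcam1 were 1.75 and 1.53 times as high, and Icam1 1.12 times (1.01 to 1.24). Among clotting genes Procr, the protein C receptor, was 1.94 times as high (1.70 to 2.22) and Plat, tissue plasminogen activator, 1.72 times (1.32 to 2.25).

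Interferon response genes were higher in 14 of 16 cases, 7 of them at least 2-fold, with a median of 0.91. Iigp1, an interferon-inducible GTPase, was at 26.0 and 133 CPM, 5.14 times as high (3.56 to 7.60), and the transcription factor Irf1 at 41.1 and 127 CPM, 3.08 times as high (2.26 to 4.26). Gbp2 was 2.19 times as high and Isg15 1.58 times, or 2.60 times without the cells with genes of other types. After thinning, at least 3 of 20 interferon genes were found in 10.2% (5.20 to 17.5%) of wild-type and 24.4% (15.8 to 34.9%) of Has2-labelled cells. In positive cells the shares were 9% and 32.3%, and in barcodes with Ptprc UMIs, which respond to interferon themselves, 10.6% and 10.7%.

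Class I antigen presentation genes showed smaller ratios. B2m was 1.07 times as high (1.02 to 1.13), H2-D1 1.30 times (1.20 to 1.41) and H2-K1 0.986 times (0.891 to 1.09). The 4 genes of the MHC list that were at most 0.5 times as high, Cd74, H2-Aa, H2-Ab1 and H2-Eb1, are class II genes, each with 82% or more of its wild-type UMIs in 1 cell.

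Immediate early genes, whose transcripts appear within minutes of a stimulus, were listed together with genes of cell handling. They were higher in 11 of 14 cases with a median of 0.45. Without the cells with genes of other types 8 of 14 were higher, with a median of 0.17. The list summed to 4991 and 6249 CPM outside the gate, 3003 and 6394 CPM in positive cells and 5496 and 7176 CPM in negative cells. Each sum was thus higher in the Has2-labelled library, and the part of handling was not tested. Fos was at 180 and 763 CPM, 4.23 times as high (3.68 to 4.89), Nr4a1 at 32.5 and 165 CPM, 5.09 times (3.66 to 7.20; 38.9, from 1 and 31 UMIs, after thinning), and Atf3 2.27 times (1.96 to 2.63). Fosb, Jund and Ier3 were lower, with ratios of 0.868, 0.864 and 0.772, and Fosb at 0.460 without the cells with genes of other types. The flow-induced factors Klf2 and Klf4 were 2.45 times (1.97 to 3.06) and 1.87 times (1.54 to 2.26) as high.

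Other genes of vascular tone on the same list as Klf2 and Klf4 were lower. Ednrb, the endothelin B receptor, was at 659 and 254 CPM, 0.386 times as high (0.338 to 0.440), and Ece1, which cleaves endothelin to its active form, at 995 and 507 CPM, 0.510 times (0.463 to 0.561). S1pr1, a sphingosine phosphate receptor that tightens the barrier, was 0.642 times as high (0.561 to 0.734) and Nos3, the endothelial nitric oxide synthase, 0.819 times (0.695 to 0.963). Of 11 measured genes of this list 5 were higher and 6 lower. Ednrb and Ece1 were lower in positive cells too, with ratios of 0.649 and 0.661.

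Cytokines and chemokines included genes with large differences that often lay in few cells. Il6 was at 1758 and 669 CPM, 0.381 times as high (0.351 to 0.412), with 9.56% and 11.6% of its UMIs in the top cell. An Il6 UMI was found in 72.0% of wild-type and 55.3% of Has2-labelled cells, and after thinning in 55.6% and 41.9%, against 3.5% and 3.29% of barcodes with Ptprc UMIs. In all barcodes outside the gate Il6 was at 1055 and 569 CPM, also lower in the Has2-labelled library, and its part in the difference was not tested. In positive cells the ratio of Il6 was 1.15, on the other side of 1, and the difference between the ratios was not tested.

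The neutrophil attractant Cxcl2 was at 1914 and 1241 CPM, 0.648 times as high (0.608 to 0.691), and 1.26 times without the cells with genes of other types. Ccl2, which attracts monocytes, was 0.967 times as high, and 2.23 times without them. Ccl7 and Cxcl5 had ratios of 0.137 and 0.227, with 71.4% and 74.5% of the wild-type UMIs in 1 cell, and without the cells with genes of other types 13 and 4 UMIs of Ccl7 (ratio 0.330, 0.0785 to 1.07) and 1 and 1 of Cxcl5 were left. The list's median was -0.23, with 5 of 15 genes higher, and 0.33 without those cells, with 7 of the 11 genes still measured higher. Cxcl10, an interferon-induced chemokine, was at 5.05 and 50.9 CPM from 7 and 61 UMIs.

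Genes of hyaluronan handling were mixed, with 9 of 14 higher and a median of 0.06. Has1, a hyaluronan synthase, was at 64.9 and 15.9 CPM and Tnfaip6, which binds hyaluronan, at 181 and 26.7 CPM, with 1 wild-type cell holding 45.6% and 79.3% of the UMIs. Without the cells with genes of other types no Has1 UMI was left in either library, and 5 and 1 of Tnfaip6, while outside the gate Has1 was at 501 and 469 CPM. Without the top cells the ratio of Tnfaip6 was 0.489 in place of 0.147. Cd44, the hyaluronan receptor, was at 346 and 174 CPM, 0.502 times as high (0.425 to 0.592). Hyal2, a hyaluronidase, was 1.58 times as high (1.14 to 2.19) and Cemip2, which also degrades hyaluronan, 1.05 times (0.885 to 1.24).

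The genes with the largest ratios over all genes, after limits on level and on the share held by 1 cell, included Serpine2, Prnd, Cd109, Depp1, Nt5e, Nr4a1 and Ccser1 on the higher side. Cd109, a surface protein that binds TGF-beta, was at 10.8 and 108 CPM, 9.94 times as high (5.81 to 18.3). Depp1 was 7.75 times as high (5.47 to 11.3), Nt5e, the adenosine-forming enzyme CD73, 5.26 times (3.69 to 7.69) and Ccser1 4.99 times (3.37 to 7.57). Serpine2, a protease inhibitor, was at 14.4 and 209 CPM, 14.5 times as high, but 1.79 times (0.348 to 11.5, from 3 and 5 UMIs) without the cells with genes of other types.

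Of these genes Depp1 and Nt5e were low in wild-type negative cells relative to positive cells, with ratios of 0.236 and 0.0651. In the Has2-labelled library the same ratios were 1.14 and 0.423. Between libraries, positive cells had ratios of 1.61 and 0.810 for them. Nt5e UMIs were in 3.70% of wild-type and 19.8% of Has2-labelled negative cells after thinning, and in 13.2% and 6.63% of barcodes with Ptprc UMIs, so the wild-type share was below that of leukocytes.

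On the lower side were Il6, Ednrb, S100a1, Abcb1b, Pdcd5, Esf1, Gar1 and Rbis. S100a1, a calcium-binding protein, was at 188 and 73.4 CPM, 0.390 times as high (0.303 to 0.498), and Abcb1b, a drug efflux pump, at 110 and 46.7 CPM, 0.426 times as high (0.308 to 0.582). Esf1 and Gar1, which act in the making of ribosomes, and Pdcd5 and Rbis had ratios of 0.441 to 0.465. The ratios of S100a1, Abcb1b, Pdcd5, Esf1, Gar1 and Rbis in positive cells were 0.484 to 0.740, also below 1. Bmp6, a BMP ligand made by endothelial cells, was at 63.5 and 20 CPM, 0.315 times as high (0.192 to 0.5), below the level required of that group.

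**Figure D5:**
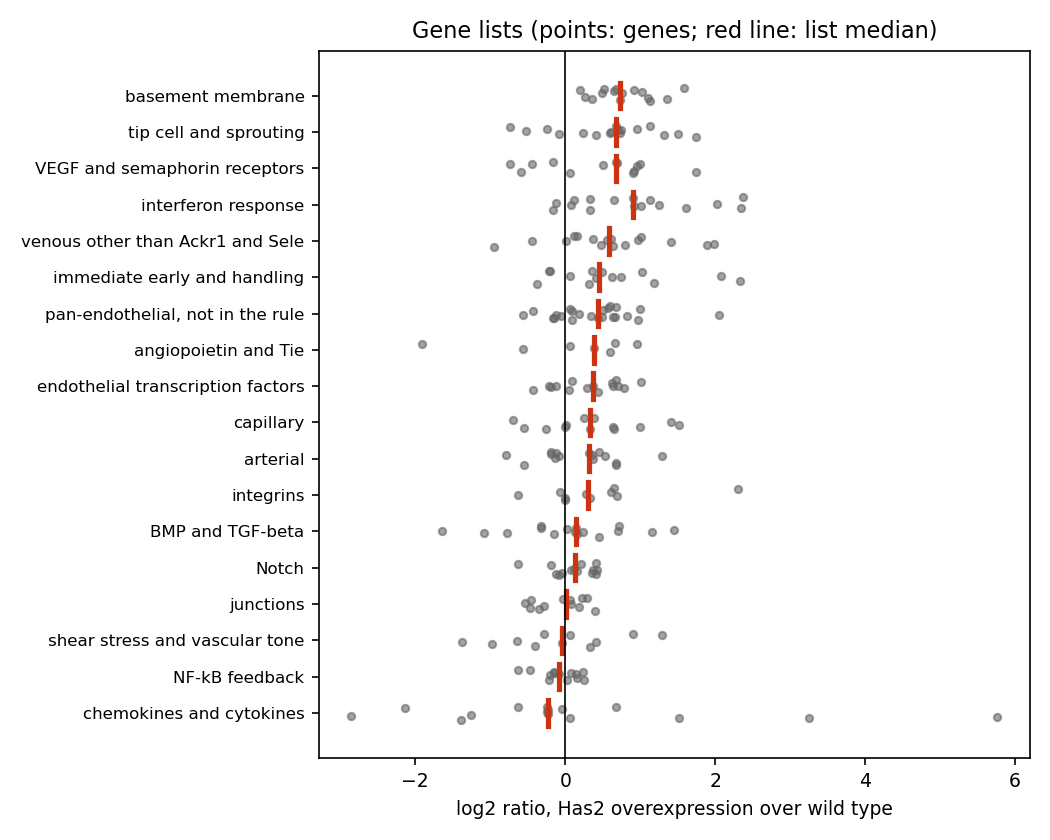
Log2 ratio of the Has2-labelled over the wild-type library in endothelial cells without Ackr1 or Sele UMIs, for the measured genes of each list (points) and the list median (line). All 15 basement membrane genes lay above 0 with a median of 0.73, and the chemokine and cytokine genes spread widest, around a median of -0.23.

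Several lists had medians near that of all genes, 0.05. Junction genes had a median of 0.02 with 6 of 12 higher, Notch genes 0.13 with 9 of 14, BMP and TGF-beta genes 0.14 with 10 of 16, hypoxia and glycolysis genes -0.05 with 7 of 15 and NF-kB feedback genes -0.08 with 6 of 13. Within them, the BMP signal carrier Smad1 was 2.24 times as high (1.78 to 2.84), and Notch1 was 0.971 times (0.819 to 1.15). The catenin genes Ctnnb1 and Ctnnd1 were 0.722 and 0.690 times as high. Over all 29 lists that do not mark other cell types, the gate markers among them, 24 had a median above 0 and 22 a median above that of all genes. The count above 0 ran from 16, under median-of-ratios scaling, to 26 over the alternatives.

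Cell cycle genes were found in few cells. After thinning, at least 3 of 15 were held by 2 of 108 wild-type and 5 of 86 Has2-labelled negative cells, 1.85% (0.225 to 6.53%) and 5.81% (1.91 to 13.0%), and by 15.0% and 10.5% of positive cells. Mki67 had 5 and 42 UMIs, with 38.1% of the latter in 1 cell, and Top2a 18 and 59 UMIs with 49.2% in 1 cell. Pcna, the replication clamp, was at 209 and 162 CPM, 0.776 times as high (0.644 to 0.934). The list's median of 1.51 turned to -0.37 after thinning.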

How the data were processed

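Dissociated skin cells were sequenced from the transcripts' 5' end on a 10x Genomics platform, per the labels' protocols. The deposited values are unnormalized UMI counts of 33696 genes in each barcode. The tool and build named for them are Cell Ranger 9.0.1 and GRCm39, per the submitters' processing notes. No authors' cell annotation was used here. Barcodes were gated by the rule above, and doublets were left in: Scrublet marked 1.372% and 0% of barcodes automatically, and an alternative left out the 1145 and 843 highest scores.

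UMIs were summed per library and cell group and scaled to CPM (Python 3.11.15, scanpy 1.11.5, scipy 1.17.1; TMM from edgeR 4.0.16). CPM have exact Poisson and shares exact Clopper-Pearson intervals. Ratios, also those of shares, have exact conditional intervals for Poisson counts, and log2 ratios used 0.5 added counts. Ratios between libraries needed 50 UMIs over both for counts of genes and 20 for lists. The code was tested on simulated data. Named genes were those of the rule, Has2, the 4 most different genes (or fewer) of a list with 100 or more UMIs, any others that describe the list, and the 8 genes with the largest ratios each way with at least 100 UMIs, 100 CPM in the higher library, at most 25% of UMIs in 1 cell and a level at least that outside the gate; for negative against positive cells, the 8 each way by the smaller ratio of the libraries. Those 8 exclude mitochondrial, ribosomal protein, sex-linked, antigen receptor and haemoglobin genes and unnamed models. Some genes that these rules name are not reported here. The members and lists were chosen with earlier results of these data known. The reference annotation at hand was of another build than the counts, so no coordinates are given.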

Additional observations from a re-analysis of the deposited data

Results flagged for a closer look

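When Ackr1/Sele-negative cells were set against Ackr1/Sele-positive cells, the median log2 ratios of 12 of 37 measured lists had opposite signs in the libraries, and in 4 of these both medians were more than 0.2 from 0. The difference was not tested, since each genotype had 1 library. For chemokines and cytokines the median log2 ratio was 0.97 in wild type and -0.24 in the Has2-labelled library, a difference of -1.20. For MHC genes the medians were 0.31 and -0.41, a difference of -0.72. For macrophage genes, which mark another cell type, they were 1.59 and -1.51, a difference of -3.10, and for neutrophil genes 0.55 and -0.95, a difference of -1.50. The macrophage list was at 385 CPM in wild-type negative cells and 185 CPM in positive cells, and at 194 and 704 CPM in the Has2-labelled library. Its part in the chemokine and MHC medians was not tested.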

How the results depend on the processing

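No paired analysis was possible because the labels number the samples as replicates of different genotypes and each genotype had 1 library. All values rest on 125 and 94 cells. In all, 14 other settings, with more chosen after seeing the data, were tried, at most 16 for any 1 result. The ratios of both cell fractions stayed within their counting intervals under each alternative run. So did the state share ratios, except the cell cycle one, which rests on few cells and was 0.486 with at least 4 gate markers. These intervals treat cells as Poisson counts and are too wide for large shares, so staying within them is a weak check. Of the 5 state share ratios 4 lay on the other side of 1 under at least 1 alternative. Ratios of named genes left their counting interval for 62 of 131 genes after thinning, 53 of 151 with the mean of per-cell CPM and 32 of 132 without cells carrying genes of other types. Of 40 results on negative against positive cells 27, 18 and 15 did so under these settings. Genes at least 2-fold higher and lower numbered 65 and 30 after thinning to 2000 UMIs, 748 and 276 with a minimum of 20 UMIs, 172 and 54 with 100 UMIs, and 3704 and 2173 with no minimum, each over another number of genes tested. Lower genes numbered 192 under median-of-ratios scaling and 249 with the mean of per-cell CPM. The basement membrane median was 0.42 with the mean of per-cell CPM and 0.50 after thinning, and the capillary median was -0.0584 after thinning and 0.0126 with a minimum of 100 UMIs. Among gene ratios at least 2-fold from 1 and medians at least 0.5 from 0, directions reversed for the cell cycle median (-0.37 after thinning), the wild-type tip median against positive cells (-0.14 after thinning), Cxcl5 (ratio 4.18 with at least 4 gate markers), Hbb-bs (0.393 without the highest Scrublet scores) and Rgs5 (0.716 without cells carrying genes of other cell types). The cause was not tested. Of any size, 30 of 151 gene ratios and 18 of 29 list medians lay on the other side of 1 or 0 under at least 1 alternative, among them the capillary and chemokine medians. Cxcl2 and Ccl2, whose ratios also changed sides without cells carrying genes of other types, are given above. Acta2, given below, did so on too few UMIs to be counted among these. Over the alternatives, the tip and sprouting median ran from 0.51 to 0.72 and the interferon median from 0.77 to 1.13.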

Other observations

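Nox4, an oxidase that makes hydrogen peroxide, and Chga, a granule protein, fell outside the rule for named genes and were chosen after their values were seen. Nox4 had 0 UMIs in 125 wild-type cells (after thinning 0 of 108 cells, which allows a share of up to 2.78% of cells with a UMI) and 100 UMIs in 19 of 94 Has2-labelled cells (20.2%). Against the floor of 3 UMIs in the wild-type sum it was at least 38.5-fold higher in the Has2-labelled library. In Ackr1/Sele-positive cells Nox4 was at 11.1 and 41.3 CPM. Chga had 0 and 130 UMIs, the latter in 8 cells with 58.5% in 1 of them, and was at least 50.1-fold higher against the same floor. It was at 0 and 53.3 CPM in positive cells and at 0 UMIs in barcodes with Ptprc UMIs of both libraries.

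Vimentin, a filament protein of endothelial cells, was at 5039 and 8954 CPM (Vim ratio 1.78, 1.72 to 1.83) in Ackr1/Sele-negative cells and 1.63 times as high in positive cells. The mesenchymal transition list, with 9 of 9 genes higher and a median of 0.76, had a median of 0.58, with 7 of 8 measured genes higher, without the cells carrying genes of other types. In that list Acta2 had a ratio of 1.85 with and 0.153 (0.00340 to 1.19, from 7 and 1 UMIs) without those cells. Oxidative stress and metallothionein genes ran both ways: Gpx1 was 1.80 times as high (1.62 to 1.99), Hmox1 1.31 times (1.21 to 1.41) and Mt2 0.483 times (0.417 to 0.558). Integrin genes had a median of 0.30, with Itga1, a collagen receptor chain, at 391 and 252 CPM, 0.644 times as high (0.558 to 0.743).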
